A study of Mus musculus with 8 samples.

Results

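Kinesins, dyneins and tubulins form the motors and the tracks of the microtubule cytoskeleton, and their RNA was compared between wild type and Ctip2 null striatum of newborn mice. Members were all probe sets whose array annotation gives 1 gene symbol that is Kif followed by a digit or begins with Dync, Tuba, Tubb or Tubg. There were 146 such probe sets of 64 genes, out of 45037 probe sets, of which 34945 carry 1 symbol and represent 18193 genes. By role they were 56 probe sets of 15 transport kinesin genes, 25 of 12 mitotic kinesin genes, 18 of 10 other kinesin genes, 9 of 7 dynein genes, 26 of 13 alpha and beta tubulin genes, and 12 of 7 genes of gamma tubulins and their complex proteins. A further 8 probe sets whose annotation joins a member's symbol to another gene were left out, and with them Tuba1b and Tuba1c, which are not analysed here.

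The study sampled the central striatum at postnatal day 0, by punches 500 µm wide through coronal sections of 300 µm. All animals were BALB/c mice: 3 were wild type, 1 was a heterozygote and 4 were Ctip2-/-, with 1 Affymetrix array for each animal. Ctip2, whose gene symbol is Bcl11b, is a zinc finger transcription factor of developing striatal projection neurons, and the comparison asks which RNAs differ when it is missing. Values are log2 expression after RMA, a procedure that corrects background, normalizes and summarises the probes of each probe set, so that 1 unit is a factor of 2. The p-values come from 3 against 4 animals and measure the spread between animals.

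Kinesins walk along microtubules, most of them toward the plus ends that point down the axon, and carry vesicles, mitochondria and other cargo outward. Cytoplasmic dynein carries cargo back toward the cell body, and in dividing cells another set of kinesins builds and moves the spindle. Microtubules themselves are polymers of alpha and beta tubulin, encoded by gene families whose members differ between cell types and ages, while gamma tubulin and its complex proteins start new ones.

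The targeted gene checked the labels: all 4 Bcl11b probe sets fell in null striatum, by 1.11 to 1.66 on the log2 scale, with no overlap between groups and the heterozygote at the wild type level. Where the probes lie relative to the deleted sequence is not stated in the labels. Of 12 listed marker genes of striatal projection neurons, 11 were measured and all 11 lay above the median probe set, whereas 4 of 6 measured cortical projection neuron genes lay below it. The heterozygote's array stood apart on the striatal list, with a mean level of 10.12, above the wild type arrays at 9.42 to 9.62 and the null arrays at 9.33 to 9.47; it enters a fit only where that is stated. Microglia markers averaged 7.17 to 7.26 in wild type and 7.41 to 7.95 in null striatum, with 0 of 11 probe sets past limma's test (1, of C1qa, with 1 probe set per gene), 5 at an unadjusted p under 0.05 and 4 with a SAM score over 2, the score of difference over spread that the study used. Of all 45037 probe sets, 19.6% had such an unadjusted p, 10.3% a SAM score over 2 and 12.7% one under -2, and the counts of these measures given below are to be read beside those shares. The part of microglia in the results was not tested. The arrays differed in the SD of their log2 values, which was 1.97, 1.84 and 1.87 on the wild type arrays in order of replicate number, 2.06 on the heterozygote's array and 1.96, 2.03, 2.05 and 1.90 on the null arrays, and several member groups moved with it, as described below. In punches of mixed tissue, fewer cells of a type and less RNA in each cell cannot be told apart.

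In the members as a whole, 6 probe sets of 5 genes passed the test, which was limma with Benjamini-Hochberg adjustment over all 45037 probe sets and a threshold of 0.05. That is 4.11% of the members, beside 2.32% of all probe sets. Higher in null striatum were 4, for the dynein subunit gene Dync1i1, the kinesin genes Kif13a and Kif26b and the beta tubulin gene Tubb4a, beside 1.87% of all probe sets. Lower were 2 probe sets of the alpha tubulin gene Tuba4a, beside 0.453% of all probe sets. By sign alone, passed or not, 70 members were positive and 76 negative. Of all 45037 probe sets 17130 were positive and 27907 negative, and counts of direction below are to be read beside these. The null arrays lay wholly above the wild type arrays on 19 members, or 13.0%, where 7.7% of all probe sets did, and wholly below on 12, or 8.22%, where 8.85% did. Single arrays moved these counts: without wild type 1, 13 members were higher and 2 lower, and without null 4 they were 10 and 2. Without wild type 2 there were 2 higher and 0 lower members, without wild type 3 there were 1 and 1, without null 1 there were 3 and 0, without null 2 there were 2 and 0, and without null 3 there were 4 and 1. Adding the heterozygote to the controls left 0 higher and 1 lower. The counts over all 45037 probe sets moved too. Without wild type 1, 2 and 3 in turn, 1733, 276 and 210 were higher and 443, 90 and 82 lower. Without null 1, 2, 3 and 4 in turn, 324, 282, 516 and 1713 were higher and 76, 77, 143 and 289 lower. Counts below that leave out single arrays are to be read beside these.

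**Figure D1:**
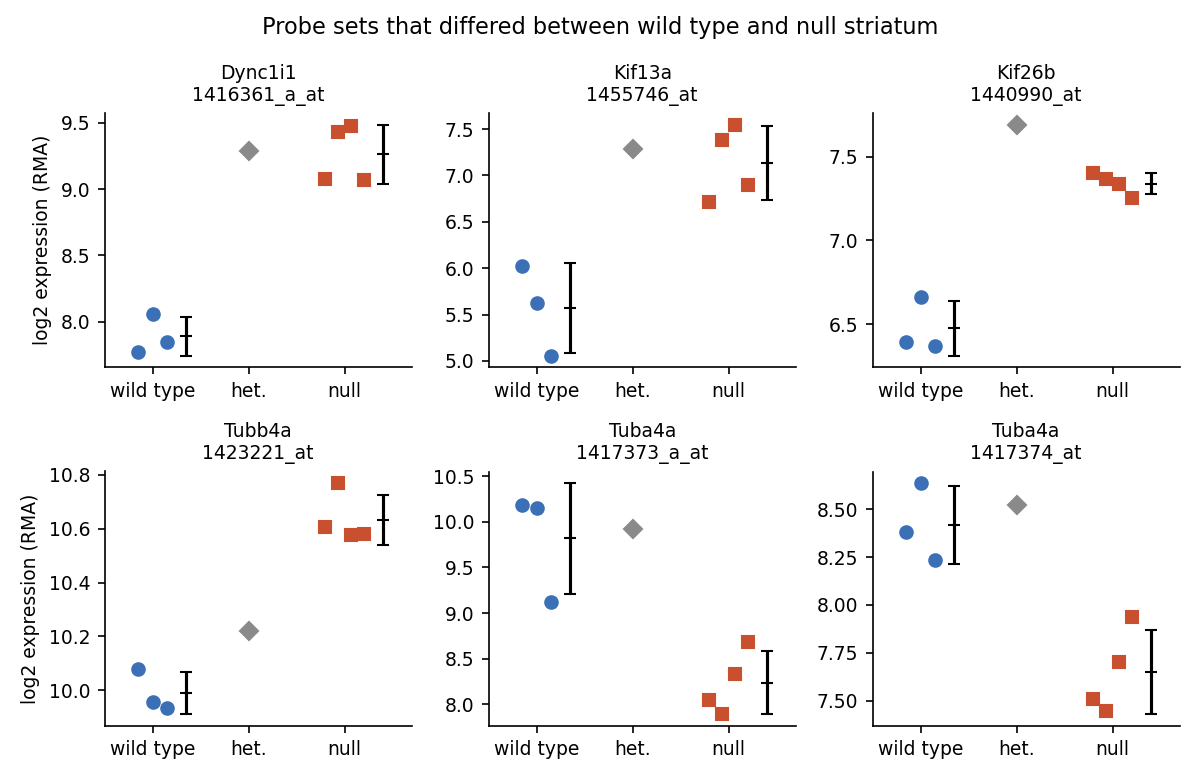
Log2 expression of the 6 member probe sets that passed the test, by animal: circles are 3 wild type, the diamond 1 heterozygote (het.), squares 4 null arrays, and black bars the mean and SD of each group. Vertical axes differ between panels and do not start at 0; the heterozygote lies with the null arrays on Dync1i1, Kif13a and Kif26b and near the wild type arrays on Tuba4a.

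Dyneins were higher in null striatum on all 9 probe sets, although only Dync1i1 passed the test. Dync1i1 encodes an intermediate chain of cytoplasmic dynein, the subunit that links the motor to dynactin and cargo, in a form found mainly in neurons. Its probe set 1416361_a_at read 7.77, 8.06 and 7.85 in wild type striatum, 9.29 in that of the heterozygote and 9.08, 9.43, 9.48 and 9.07 in null striatum, each in order of replicate number. The groups did not overlap, and the single heterozygous animal stood among the null arrays. The mean rose from 7.89 ± 0.15 (SD, n = 3) to 9.26 ± 0.22 (SD, n = 4), a 2.59-fold difference of 1.37 (SE 0.15; limma adjusted p = 0.00265). The call was lost when the heterozygote counted as a control (limma adjusted p = 0.256), and it held without any single wild type or null array.

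The other dynein genes differed less, and none of them passed. Dync1i2, which encodes the more widely expressed intermediate chain, read 9.34, 9.24 and 9.37 in wild type striatum and 9.69, 9.76, 10.18 and 9.41 in null striatum, a difference of 0.44 (limma adjusted p = 0.213) with no overlap. Dync1li1, a light intermediate chain gene, differed by 0.44 (limma adjusted p = 0.224), with wild type 1 at 9.42 above null 4 at 9.21. Dync1li2, the other light intermediate chain gene, differed by 0.34 and 0.59 on its probe sets, with the groups overlapping on both. Dync1h1, the heavy chain gene that holds the motor domain, differed by 0.26 and 0.36. For dynein 2, the motor of cilia, Dync2h1 differed by 0.33 and Dync2li1 by 0.18. The median difference of the 9 probe sets was 0.36, and 8 of the 9 lie in the brighter part of the array (at or above the median level). All probe sets of that part had a median of 0.01, with 11503 of 22519 positive. Those of the 5 brightest of 20 bins of level had medians of 0.07 to 0.20. With the arrays' SD as a covariate the dynein median was 0.11, with 8 of 9 positive, and after quantile normalization of the arrays it was 0.23. In the SD fit Dync1i1 differed by 1.27 and passed (limma adjusted p = 0.0291).

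Among transport kinesins, which carry cargo along axons and dendrites, 39 of 56 probe sets were higher in null striatum and 17 lower, but only 1, of Kif13a, passed the test. The median difference was 0.17 over all 56 and 0.33 over the 37 in the brighter part of the array. Of these 37, 30 were positive, beside 11503 of all 22519 probe sets of that part. The brighter part is set by the mean of wild type and null arrays together. Kif13a probe sets 1455746_at and 1447853_x_at are in it only through their null values. All probe sets in the 5 brightest bins of level had medians of 0.07 to 0.20. The null arrays lay wholly above the wild type arrays on 15 of the 56 and wholly below on 4, beside 7.7% and 8.85% of all probe sets. At an unadjusted p under 0.05 there were 23, or 41.1%, beside 19.6% of all. Without wild type 1 there were 7 that passed and without null 4 there were 6, whereas none passed without wild type 2, wild type 3 or null 2. Quantile normalization left a median of 0.12. Fitted with the arrays' SD as a covariate, the median was 0.11, with 34 positive and 22 negative, and 0 passed; in that fit Kif13a differed by 1.13 (limma adjusted p = 0.106).

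Kif13a encodes a kinesin-3 motor that moves endosomes and vesicles toward the plasma membrane. Its probe set 1455746_at read 6.03, 5.62 and 5.06 in wild type, 7.29 in the heterozygote and 6.71, 7.38, 7.55 and 6.89 in null striatum. All null arrays and the heterozygote stood above all wild type arrays, which themselves spread over nearly a full log2 unit. It rose by 1.57 (SE 0.26), or 2.96-fold (limma adjusted p = 0.0171). The 4 other Kif13a probe sets differed by 0.96 (limma adjusted p = 0.184), 0.60 (limma adjusted p = 0.123), 0.12 and -0.15, so the probe sets of this gene do not all move alike. The call was lost without wild type 2 (limma adjusted p = 0.0675), wild type 3 (0.0705) or null 2 (0.0597), and with the heterozygote among the controls (0.372).

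Kinesin-1, the motor of fast axonal transport, is built from the heavy chain genes Kif5a, Kif5b and Kif5c, and 11 of their 13 probe sets were higher in null striatum, with a median difference of 0.33. Kif5c, a neuronal form, read 12.09, 11.95 and 11.88 in wild type striatum, 12.28 in the heterozygote and 12.42, 12.35, 12.64 and 12.43 in null striatum on its brightest probe set. These groups did not overlap, and neither did those of the next 2 Kif5c probe sets. The 3 differences were 0.49, 0.56 and 0.57, or 1.41-fold, 1.48-fold and 1.49-fold, with limma adjusted p of 0.0771, 0.0674 and 0.0896, and a 4th, dim probe set differed by -0.24. Kif5a, also neuronal, read 10.22, 10.14 and 10.12 in wild type and 10.56, 10.54, 10.44 and 10.43 in null striatum, a difference of 0.33 (limma adjusted p = 0.158) without overlap. Its next probe set differed by 0.37, again without overlap, and its dimmest by 0.00. Kif5b, the form of most tissues, differed by 0.22 on its brightest probe set and by 0.07 to 0.45 on the other 5, with overlap on each. One Kif5c probe set passed without null 4 (limma adjusted p = 0.0379), and 1 of Kif5b without wild type 1 (0.0272).

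Kif21a and Kif21b encode kinesin-4 motors that move toward plus ends and slow microtubule growth. Of their 5 probe sets, 4 were higher in null striatum, by 0.38 to 0.98, and a dim one of Kif21a differed by 0.00. Kif21b read 9.56, 9.18 and 9.55 in wild type, 10.34 in the heterozygote and 10.10, 10.32, 11.12 and 10.11 in null striatum. Null 3 was the highest, and the lowest null array stood above the highest wild type array. That difference was 0.98, or 1.97-fold (limma adjusted p = 0.0726), and that of its dimmer probe set 0.38. Kif21a read 9.18, 8.82 and 8.71 in wild type and 9.58, 9.77, 9.56 and 9.27 in null striatum, a difference of 0.64 (limma adjusted p = 0.0749), and its other probe sets differed by 0.86 and 0.00. Without null 4, Kif21a had 0.74 (limma adjusted p = 0.0345) and Kif21b 1.08 (limma adjusted p = 0.05).

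Kinesin-2 motors, which serve cilia and axonal vesicles, split by gene: 8 of their 13 probe sets were higher in null striatum and 5 lower, with a median difference of 0.06, and 0 passed limma's test, while 5 had an unadjusted p under 0.05. Their direction depended on scaling, with a median of -0.03 after quantile normalization, and of -0.10 in the fit with the arrays' SD as a covariate, where 3 were positive and 10 negative. Kif3a, a subunit of the heterotrimeric motor, read 8.88, 8.14 and 8.59 in wild type and 9.38, 9.72, 9.56 and 8.69 in null striatum on its brightest probe set, where null 4 lay within the wild type range. That difference was 0.80 (limma adjusted p = 0.143), and the other 3 probe sets gave 0.94 (0.164), 0.96 (0.0999) and 0.06 (0.837). Its partners differed less, Kif3b by 0.06 on its brightest probe set and by -0.05, -0.02 and 0.33 on the others, and Kif3c by 0.17 and 0.21. Kif17, a dendritic motor that carries glutamate receptor subunits, lay on the other side of 0 on all 3 probe sets, at -0.27, -0.31 and -0.42, with no overlap between groups on any of them and limma adjusted p from 0.218 to 0.28. Kif17 was low where the arrays' SD was large: its brightest probe set was lowest in the heterozygote (6.54) and null 3 (6.59), the arrays of largest SD.

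Of the remaining kinesin-3 genes, Kif1b, a carrier of mitochondria and synaptic vesicle precursors, differed by 0.46 (limma adjusted p = 0.153) on its brightest probe set, with null arrays from 10.99 to 11.52 above wild type arrays from 10.59 to 10.87. Its other 6 probe sets ranged from 0.00 to 0.59. Kif1a, the main carrier of synaptic vesicle precursors, had probe sets of opposite sign, -0.52 (limma adjusted p = 0.148) and 0.31 (0.272), so no direction can be given for it. Kif1c differed by 0.68 (limma adjusted p = 0.208) on its brightest probe set and by -0.17 to -0.10 on the other 3. Without wild type 1, which read 7.48 there against 6.16 and 6.66 in the other wild type arrays, Kif1c passed at 1.04 (limma adjusted p = 0.0198). Kif13b, which carries phosphoinositide-bearing vesicles, and Kif16b, which carries early endosomes, had differences between -0.22 and 0.17 on 7 probe sets, and none passed.

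**Figure D2:**
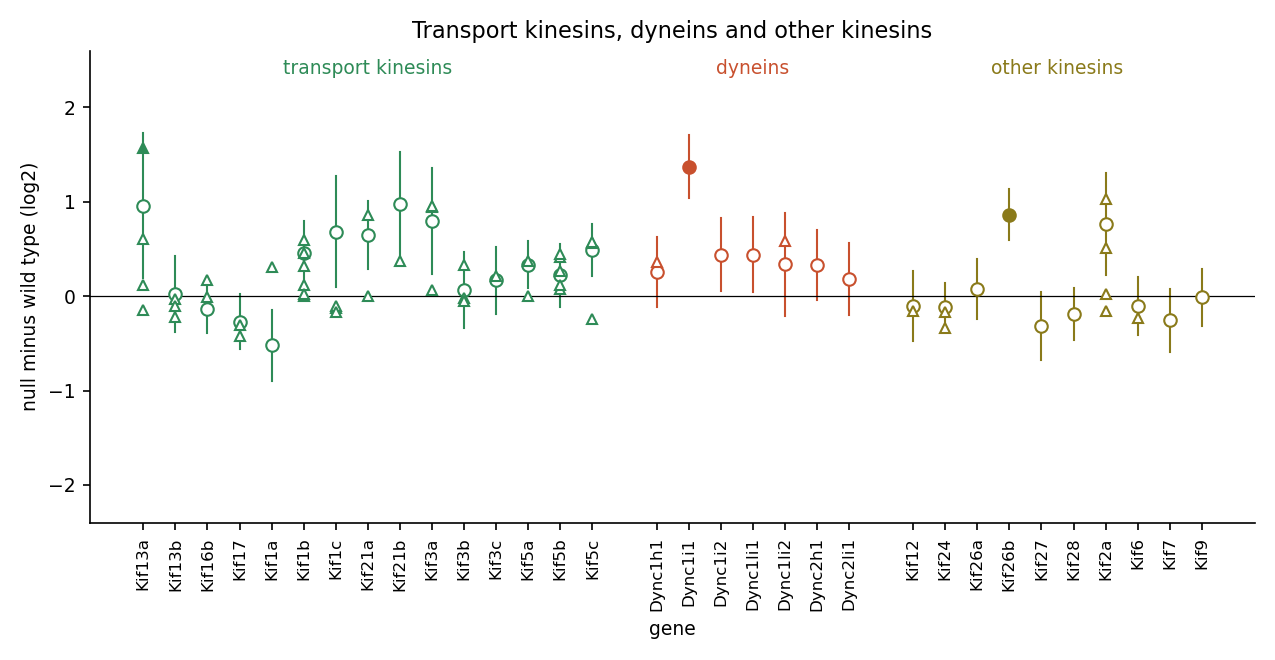
Null minus wild type difference in log2 expression (vertical) for transport kinesin, dynein and other kinesin genes (horizontal): circles are each gene's brightest probe set with its 95% confidence interval from limma, triangles its other probe sets, and filled symbols passed the test. All 9 dynein probe sets lie above 0, beside 17130 of all 45037 probe sets, and the filled ones are 1 each of Kif13a, Dync1i1 and Kif26b.

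The other kinesins were 18 probe sets of 10 genes, with a median difference of -0.11, and 1 of them passed. Kif26b encodes an atypical kinesin that binds microtubules without moving along them and acts in cell adhesion and Wnt signalling. Its single probe set read 6.39, 6.66 and 6.37 in wild type, 7.69 in the heterozygote and 7.40, 7.37, 7.34 and 7.25 in null striatum. The null arrays lay close together, all above the wild type arrays, and the heterozygote was higher still. Kif26b rose by 0.86 (SE 0.12), or 1.82-fold (limma adjusted p = 0.00899). It was not called with the heterozygote among the controls (limma adjusted p = 0.542), without wild type 3 (0.0524) or without wild type 1 and null 2 together (0.0664), the arrays highest in the choroid plexus gene Ttr, at 13.34 and 13.44 on its brightest probe set.

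Kif2a, a kinesin that takes microtubules apart and limits the growth of axon branches, differed by 0.76 (limma adjusted p = 0.144) on its brightest probe set, from 9.18 ± 0.54 (SD, n = 3) to 9.94 ± 0.27 (SD, n = 4). Wild type 1, at 9.78, lay inside the null range of 9.69 to 10.27, and the other wild type arrays read 8.76 and 9.01. Without wild type 1 the difference was 1.06 (limma adjusted p = 0.0219). The other Kif2a probe sets gave 1.03, 0.51, 0.02 and -0.16. The remaining 8 genes of this group had differences between -0.33 and 0.08 and none passed; they include Kif7, a regulator of Hedgehog signalling in cilia, at -0.25, and Kif26a, the closest relative of Kif26b, at 0.08.

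Alpha and beta tubulins changed in both directions, each in the form named 4a. Tuba4a encodes an alpha tubulin of mature neurons, muscle and platelets. Its brightest probe set, 1417373_a_at, read 10.18, 10.15 and 9.12 in wild type, 9.92 in the heterozygote and 8.04, 7.89, 8.34 and 8.68 in null striatum. Wild type 3 stood about a unit below the other wild type arrays and still above all null arrays, and the heterozygote lay at the wild type level. Tuba4a fell by 1.58 (SE 0.28) on this probe set, 2.99-fold lower (limma adjusted p = 0.0207). On 1417374_at it read 8.38, 8.64 and 8.23 in wild type and 7.51, 7.45, 7.70 and 7.94 in null striatum, a fall of 0.77, or 1.70-fold (limma adjusted p = 0.0383). The third probe set differed by -0.18 (limma adjusted p = 0.449) and its groups overlapped.

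With the heterozygote among the controls, the brighter Tuba4a probe set was still called (limma adjusted p = 0.0268), alone among the 6. Its call was lost without wild type 2 (limma adjusted p = 0.0952), null 1 (0.0632) or null 2 (0.0695), and with the arrays' SD as a covariate (0.149), where the difference was -1.52. Leaving out wild type 1 and null 2 together removed it as well (limma adjusted p = 0.111). The weaker probe set lost its call in 10 settings, among them without wild type 2 (limma adjusted p = 0.15), wild type 3 (0.0824), null 1 (0.11), null 2 (0.124) or null 3 (0.0697). Of 29 probe sets of 11 striatal neuron marker genes, 7 were lower in limma's test, 5 of them of Pde10a and 1 each of Drd1 and Ppp1r1b. Another 1, of Six3, was higher and 21 did not pass, beside 0.453% lower and 1.87% higher of all probe sets. Of the 29 differences 10 were positive. The part of these marker genes' cells in the Tuba4a result was not tested.

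Tubb4a, a beta tubulin of neurons and myelinating glia, read 10.08, 9.96 and 9.93 in wild type, 10.22 in the heterozygote and 10.61, 10.77, 10.57 and 10.58 in null striatum. The groups did not overlap and spread little, with SDs of 0.08 and 0.09, and the heterozygote lay between them. Tubb4a rose by 0.64 (SE 0.12), or 1.56-fold (limma adjusted p = 0.0228). Its call was lost without wild type 2 (limma adjusted p = 0.0876), wild type 3 (0.103), null 1 (0.0756) or null 2 (0.0864). The same held without wild type 1 and null 2 together (limma adjusted p = 0.085) and with replicate numbers as a block (0.0647). Quantile normalization (limma adjusted p = 0.0813), the SD covariate (0.0981) and the heterozygote among the controls (0.0669) also removed the Tubb4a call. The oligodendrocyte lineage list, a glial source of this form, ranged from 7.69 to 8.02 in wild type and 7.75 to 8.05 in null striatum; 0 of its 18 probe sets passed limma, 0 had an unadjusted p under 0.05 and 1 had a SAM score over 2.

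The abundant tubulins of young neurons differed little. Tuba1a, the main alpha tubulin of growing neurons, read 13.61, 13.73 and 13.75 in wild type and 13.63, 13.59, 13.55 and 13.67 in null striatum, a difference of -0.09 with a 95% interval of -0.34 to 0.16. Tubb3, the neuron-specific beta tubulin, differed by 0.05 (interval -0.21 to 0.31), Tubb2a by -0.03 (interval -0.34 to 0.29) on an _s_at probe set and by -0.27 (interval -0.63 to 0.10) on the dimmer 1427838_at, and Tubb2b, needed for neuronal migration, by -0.26 (interval -0.65 to 0.14). Tubb5, the commonest beta tubulin of dividing and young cells, differed by 0.20 (interval -0.07 to 0.47) and by 0.37 on its other probe set. These are near-identical genes, and probe sets that end in _s_at or _x_at can bind RNA of several of them, so single tubulin genes are uncertain where only such probe sets exist, as for Tuba1a.

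Among the remaining tubulins none passed. All 7 alpha tubulin probe sets had a difference below 0, with Tuba3b, a gene known mainly from testis, at -0.60 and Tuba8 at -0.29 on both of its probe sets. Beta tubulins divided into 7 positive and 12 negative probe sets. Tubb4b, the beta tubulin of cilia, differed by 0.27 on its brightest probe set and by -0.39 to -0.21 on the other 5, of which 4 carry the _x_at ending. Tubb6 differed by -0.15 and 0.07, and Tubb1, a form of platelets, by -0.12.

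Gamma tubulins and their complex proteins, which seed microtubules at centrosomes and along existing microtubules, gave 12 probe sets with a median difference of 0.03, and 0 passed limma's test. At an unadjusted p under 0.05 there was 1, and 2 had a SAM score over 2. Tubg1 differed by -0.17 and Tubg2, the form of brain, by 0.32, with null 4 at 7.37 as low as wild type 3 at 7.41. Tubgcp5 had the largest difference, 0.47 (limma adjusted p = 0.213), and passed without wild type 1, at 0.71 (limma adjusted p = 0.0279).

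Promoter windows of the called genes other than Kif13a, for which no window was available, are printed to show what sequence lies at their starts. They come from RefSeq on GRCm38.p6. Each is 300 bases long, from 250 before to 50 after the start, and written on the gene's strand. In all, 56 windows of 51 member genes were matched by symbol, and 1 each is shown for Dync1i1 (chr6:5725389-5725688, plus strand), Kif26b (chr1:178528875-178529174, plus), Tubb4a (chr17:57087551-57087850, minus) and Tuba4a (chr1:75219245-75219544, minus). Capitals mark matches on either strand to 6 short sequences, none of which contains another, spelled out with their counts in the next paragraph and with the mitotic kinesins.
Dync1i1: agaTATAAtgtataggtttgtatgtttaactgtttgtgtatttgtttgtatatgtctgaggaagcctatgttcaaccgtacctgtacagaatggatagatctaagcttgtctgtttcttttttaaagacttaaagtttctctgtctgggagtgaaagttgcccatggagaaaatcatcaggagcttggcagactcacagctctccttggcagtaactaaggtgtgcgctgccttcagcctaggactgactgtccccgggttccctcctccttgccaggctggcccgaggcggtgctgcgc
Kif26b: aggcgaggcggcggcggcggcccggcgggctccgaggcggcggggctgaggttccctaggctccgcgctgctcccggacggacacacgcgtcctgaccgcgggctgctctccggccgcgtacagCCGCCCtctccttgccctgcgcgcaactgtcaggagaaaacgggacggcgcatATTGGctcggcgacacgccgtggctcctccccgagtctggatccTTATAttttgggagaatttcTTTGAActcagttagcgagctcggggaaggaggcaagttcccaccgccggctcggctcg
Tubb4a: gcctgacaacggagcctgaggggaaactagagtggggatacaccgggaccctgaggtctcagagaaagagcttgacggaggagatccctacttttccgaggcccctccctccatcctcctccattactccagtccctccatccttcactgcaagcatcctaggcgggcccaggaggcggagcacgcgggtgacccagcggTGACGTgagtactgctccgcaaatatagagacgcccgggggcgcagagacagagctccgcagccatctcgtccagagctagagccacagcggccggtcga
Tuba4a: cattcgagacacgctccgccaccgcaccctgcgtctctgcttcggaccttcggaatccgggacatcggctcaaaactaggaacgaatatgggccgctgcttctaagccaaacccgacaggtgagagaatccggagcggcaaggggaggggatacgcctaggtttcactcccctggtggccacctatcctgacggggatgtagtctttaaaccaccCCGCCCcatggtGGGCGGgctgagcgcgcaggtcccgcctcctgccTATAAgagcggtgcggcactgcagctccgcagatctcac

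TGACCA is in none of these windows, and in 9 of the 56 member windows (16.1%) beside 13.6% of all 32851 windows. TGACGT, from the cyclic AMP response element, is in the Tubb4a window at -50, where 0 is the start, and in 7.51% of all windows. Tuba4a holds GGGCGG on each strand, at -23 and -35, and TATAA at 11. Kif26b holds TTTGAA at -9, TATAA at -29, CCAAT at -73 and GGGCGG at -126, and Dync1i1 holds only TATAA, at -247. GGGCGG, the GC box bound by Sp1 proteins, is in 35 of the 56 member windows (62.5%) and in 35.7% of all windows, CCAAT in 39.3% and 37.4%, and TATAA in 23.2% and 24.9%. A match describes the letters only, and its absence from a window says nothing of the factor. The Dync1i1 window has 46.7% G and C and those of Kif26b, Tubb4a and Tuba4a 68.3%, 62.3% and 62.0%.

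Mitotic kinesins, which form and pull the spindle and complete cell division, were lower in null striatum on 23 of 25 probe sets, by small amounts. Of all 45037 probe sets 27907 were lower, and 0 of the 25 passed limma's test. Differences ran from -0.38 to 0.28 with a median of -0.20, 2 had an unadjusted p under 0.05, beside 19.6% of all probe sets, and SAM scores beyond 2 counted 1 higher and 5 lower, beside 10.3% and 12.7%. Most were dim: 19 of the 25 lay in the dimmer part of the array, where all probe sets had a median difference of -0.13 and these 19 had -0.20. In that part 5627 of all 22518 probe sets were positive, and 1 of these 19. After quantile normalization the median was -0.11. In the fit with the arrays' SD as a covariate it was -0.05, with 8 positive and 17 negative.

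Kif11, the motor that pushes spindle poles apart, read 6.25, 6.16 and 6.16 in wild type, 6.02 in the heterozygote and 5.68, 5.83, 5.87 and 6.18 in null striatum, where null 4 lay inside the wild type range. Its difference was -0.30 (limma adjusted p = 0.265), and -0.25 and -0.09 on its other probe sets. Kif4, a motor that organises chromosomes and the spindle midzone, differed by -0.31 (limma adjusted p = 0.252), with null arrays from 5.76 to 6.17 just below the lowest wild type array at 6.18. Kif2c, which takes microtubules apart at centromeres, gave -0.38, -0.37, -0.20 and -0.13. Kif23, needed to divide the cell body, differed by -0.20 on its brightest probe set, Kif20a, which acts beside it, by -0.27, and Kif20b by -0.20. Kif15, a second spindle-pushing motor, differed by -0.17, with null arrays from 6.01 to 6.72 around the wild type range. The positive ones were Kif18a, which trims kinetochore microtubules, at 0.28 and Kif22, which moves chromosome arms, at 0.08, and each of these genes also had a negative probe set.

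Over the 12 mitotic kinesin genes, each by its brightest probe set, the mean level was 5.62, 5.76 and 5.75 in wild type striatum, 5.49 in the heterozygote and 5.59, 5.50, 5.40 and 5.71 in null striatum. Null 4 lay within the wild type range, the heterozygote and the other null arrays below it, and the level was lower on arrays of larger SD. Markers of cycling cells, such as the proliferation antigen Mki67 and the cyclins, gave 36 probe sets of 18 genes with a median difference of -0.17, of which 0 passed limma, 4 had an unadjusted p under 0.05 and SAM counted 1 higher and 7 lower. Their mean level was 6.34 to 6.57 in wild type, 6.58 in the heterozygote and 6.28 to 6.48 in null striatum, and 6 of the 18 genes lay below the median probe set. DNA replication genes gave 27 probe sets with a median of -0.07, of which 0 passed limma, 5 had an unadjusted p under 0.05 and SAM counted 4 higher and 1 lower. Whether fewer dividing cells took part in the mitotic kinesin values was not tested.

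**Figure D3:**
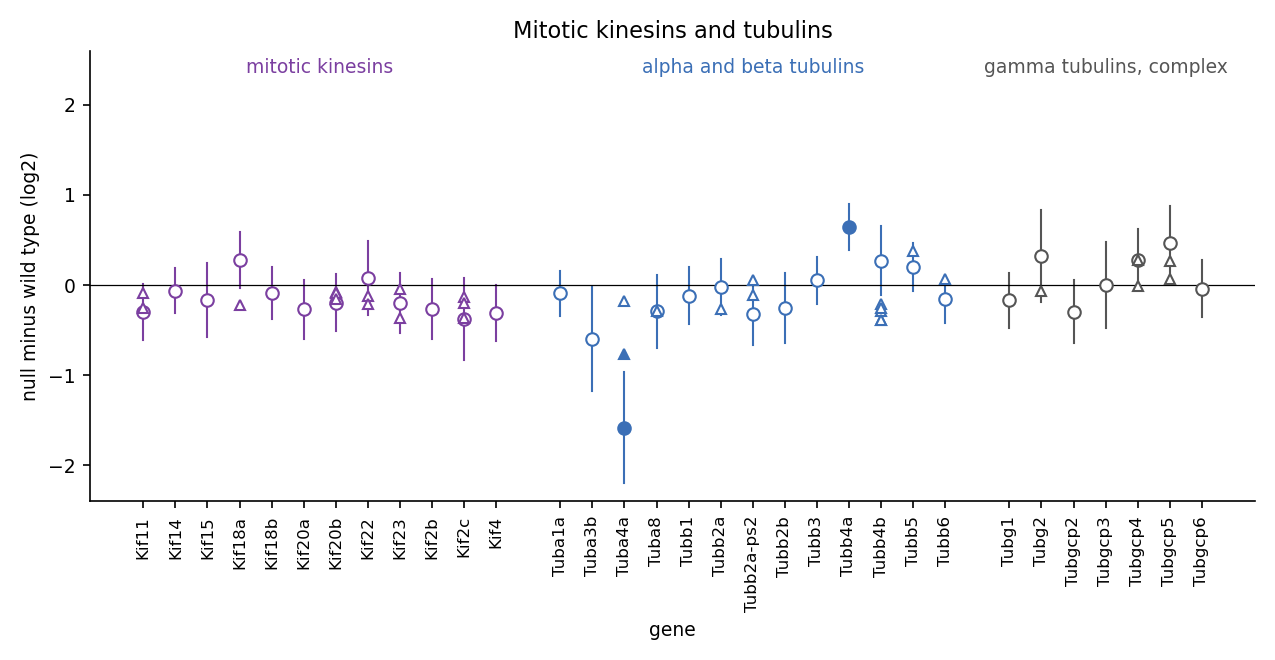
Null minus wild type difference in log2 expression (vertical) for mitotic kinesin, tubulin and gamma tubulin complex genes (horizontal), drawn as circles for each gene's brightest probe set with its 95% confidence interval from limma and triangles for the others; filled symbols passed the test. Tuba4a has 2 filled symbols below 0 and Tubb4a 1 above. Of 25 mitotic kinesin probe sets 23 lie below 0, beside 27907 of all 45037 probe sets.

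TTTGAA, the core of the element that restricts many genes to late phases of the cell cycle, was in 9 of 11 mitotic kinesin windows (81.8%), in 1 of 13 transport kinesin windows (7.69%) and in 17.9% of all windows. The 9 are shown because the mitotic kinesins, split from the transport kinesins by function alone, share this short sequence. Each stretch holds 30 bases on the gene's strand around the match nearest the start, with the match, or its reverse complement TTCAAA, in capitals.
Kif11: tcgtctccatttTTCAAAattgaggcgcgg
Kif14: ggaggtcctgtcTTTGAAgtctgcagtgtc
Kif15: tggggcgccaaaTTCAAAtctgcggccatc
Kif18b: cggaccggctagTTTGAAcgcgccgcgccg
Kif20b: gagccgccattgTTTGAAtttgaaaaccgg
Kif22: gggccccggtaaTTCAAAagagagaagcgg
Kif23: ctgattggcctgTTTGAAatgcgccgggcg
Kif2c: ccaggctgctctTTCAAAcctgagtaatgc
Kif4: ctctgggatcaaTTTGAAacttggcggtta
The first bases of these matches lie between -228 and 19 of the start, and on 7 of the 9 between -19 and 19. They come from RefSeq GRCm38.p6, for example chr19:37376351-37376380 for Kif11 and chrX:100626072-100626101 for Kif4.

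**Figure D4:**
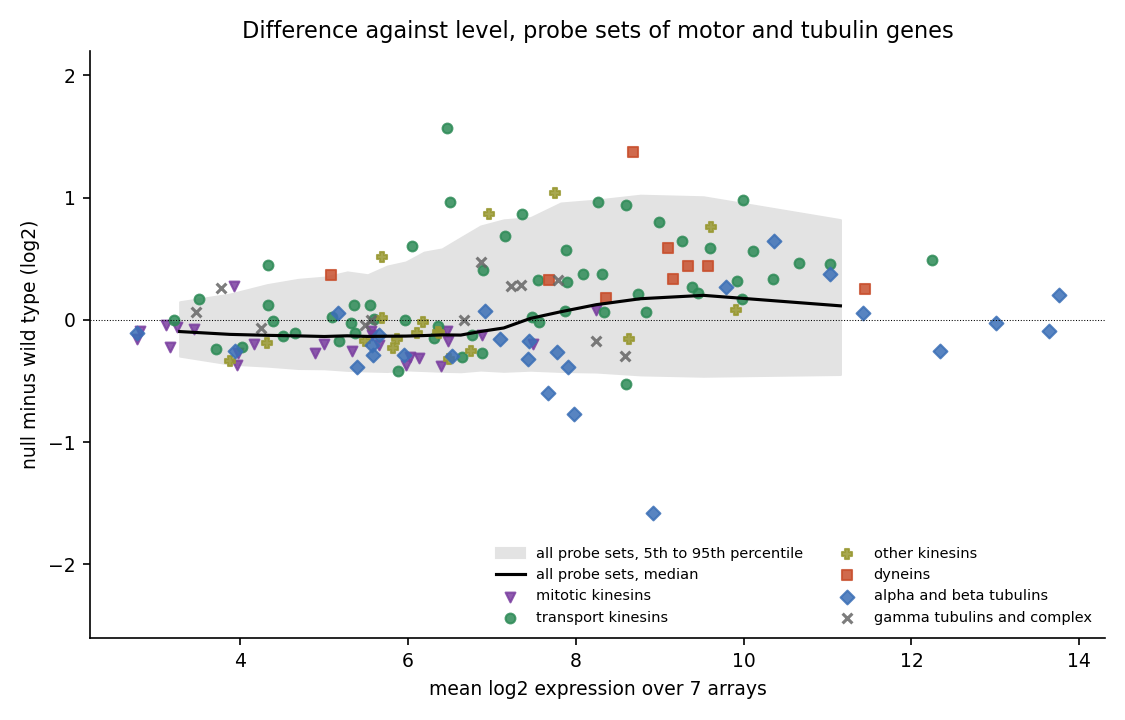
Null minus wild type difference (log2, vertical) against mean log2 expression over the 7 wild type and null arrays (horizontal) for the 146 member probe sets by role; the line and grey band are the median and the 5th to 95th percentile of all probe sets in 20 bins of level. The line lies between -0.10 and -0.14 at low levels and reaches 0.20 at high ones. Above 0 lie 39 of 56 transport kinesin and 2 of 25 mitotic kinesin probe sets, beside 17130 of all 45037.

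Level and direction moved together in all probe sets, and this bears on how the roles are read. In 20 bins of level the median difference of all probe sets lay between -0.10 and -0.14 in the dimmest 13 and reached 0.20 in a bright one, so dim probe sets tended to be lower and bright ones higher in null striatum. Mitotic kinesins sit mostly at the dim end and transport kinesins and dyneins at the bright end. Members in the brighter part of the array had a median of 0.20, beside 0.01 for all such probe sets, and members in the dimmer part -0.11 beside -0.13. Over the 14 transport kinesin genes in the brighter part, the mean level was 8.98, 8.73 and 8.73 in wild type striatum, 9.12 in the heterozygote and 9.17, 9.25, 9.26 and 9.02 in null striatum. The heterozygote lay among the null arrays, and null 4 stood only just above wild type 1. Kif13a, which is in the brighter part only through its null values, read 6.50 in wild type 1 and 6.94 in null 4. The narrow gap between these arrays therefore rests partly on that choice of genes. Wild type 1 and null 1 had nearly the same SD, 1.97 and 1.96. They read 8.98 and 9.17 on the transport kinesin mean and 5.62 and 5.59 on that of the mitotic kinesins. This is 1 animal of each group, and the part of the arrays' SD in these levels was not tested.

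**Figure D5:**
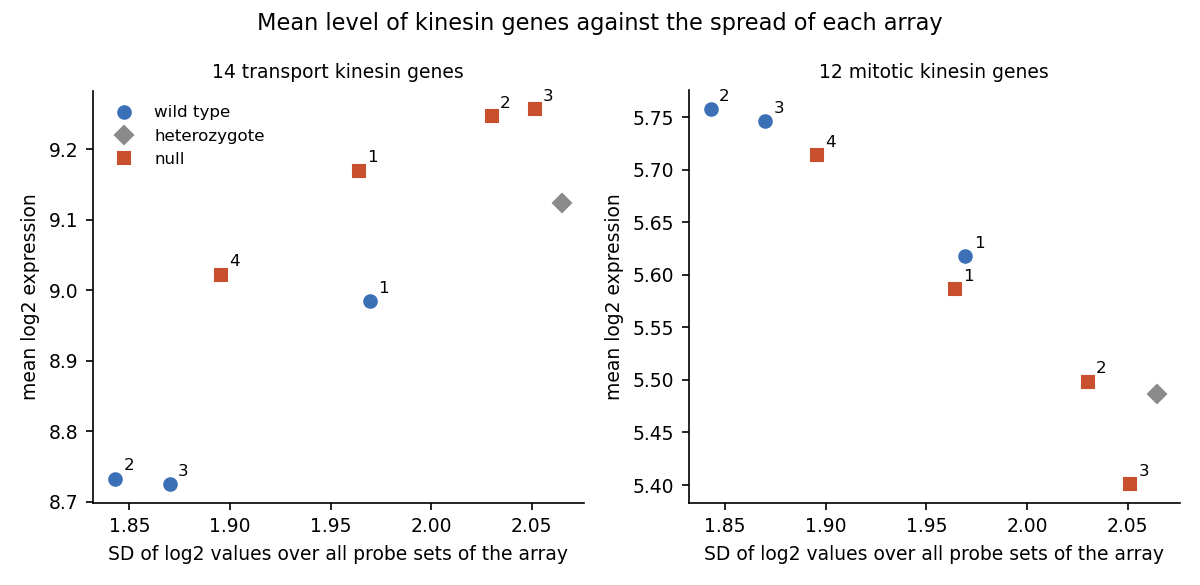
Mean log2 expression of 14 transport kinesin genes (left) and 12 mitotic kinesin genes (right), each gene by its brightest probe set, against the SD of log2 values over all probe sets of the array; numbers are replicates, and neither axis starts at 0. Transport kinesins are higher and mitotic kinesins lower on arrays of larger SD, and on the left all 4 null arrays lie above the 3 wild type arrays. The 14 genes are those in the brighter part of the array, which Kif13a enters only through its null arrays.

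The partners of these motors were taken from lists of pathway genes. Kinesin light chains, adaptors and related motors gave 35 probe sets of 15 genes, of which 0 passed limma, 6 had an unadjusted p under 0.05 and SAM counted 5 higher and 2 lower. Of 52 probe sets of dynein light chains, dynactin and dynein cofactors, 2 rose, beside 1.87% of all probe sets, and 50 did not pass. Genes of these lists are named by the probe sets that passed, which need not be their brightest. Pafah1b1, known as Lis1, which holds dynein on microtubules and is required for neuronal migration, rose by 1.31, or 2.47-fold (limma adjusted p = 0.0491), on probe set 1417086_at, from wild type values of 8.24, 7.64 and 8.37 to null values of 9.38, 9.62, 9.92 and 8.65. Hook1, a cargo adaptor of dynein, rose by 0.95, or 1.93-fold (limma adjusted p = 0.019), from 6.89, 6.18 and 6.51 to 7.48, 7.45, 7.54 and 7.43. On both the null arrays lay above all wild type arrays. The other 4 Pafah1b1 probe sets differed by 0.10 to 0.80 and the other Hook1 probe set by 0.97 (limma adjusted p = 0.0577). Neither call held with the heterozygote among the controls (limma adjusted p = 0.535 and 0.093) or with the SD covariate (0.253 and 0.12). That of Pafah1b1 was also lost with median centring (limma adjusted p = 0.0882), without wild type 1 and null 2 together (0.144) and without any single array but null 4 (0.0551 to 0.188), and that of Hook1 without wild type 2, wild type 3, null 1 or null 2 (0.0609 to 0.0855). The count of 2 became 4 without wild type 1 and 5 without null 4, 0 without wild type 2, wild type 3, null 1 or null 2, and 1 without null 3; with 1 probe set per gene it was 1, of 20.

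Of 82 probe sets of microtubule associated proteins, 9 rose, of 6 genes, and 73 did not pass; the null arrays lay wholly above the wild type arrays on 36, beside 1.87% called higher and 7.7% wholly above among all probe sets. The median difference was 0.40, and 0.49 over the 70 in the brighter part of the array, where all probe sets had 0.01 and those of the 5 brightest bins of level 0.07 to 0.20. Map1b, which stabilises microtubules in growing axons, rose by 1.63 and 1.28 on 2 probe sets (limma adjusted p = 0.00636 and 0.0174), and its brightest differed by 0.83 (0.0765). On the first it read 8.20, 7.20 and 7.70 in wild type, 8.71 in the heterozygote and 9.48, 9.44, 9.16 and 9.25 in null striatum. Dcx, doublecortin, a microtubule binding protein of migrating neurons, rose by 1.28, 0.96 and 0.66 on 3 probe sets (limma adjusted p = 0.0207, 0.0422 and 0.0497), of which the last is its brightest, and differed by 0.68 on a 4th (0.0619). Clasp1, a plus-end stabiliser, rose by 1.14 (limma adjusted p = 0.0171), the dendritic Map2 by 0.85 (0.0254), the widespread Map4 by 0.82 (0.0396) and the doublecortin relative Dclk1 by 0.77 (0.0173), each on 1 probe set, which was the brightest of its gene for Clasp1 alone. The other probe sets of these genes did not pass: 3 of Clasp1 differed by -0.11 to 0.84, 3 of Map2 by 0.56 to 0.88, 4 of Map4 by -0.25 to 0.55 and 8 of Dclk1 by 0.17 to 0.78. With 1 probe set per gene the count was 3 of 25, of Clasp1, Dcx and Stmn4. The count of 9 became 13 without wild type 1, 2 without wild type 2, 1 without wild type 3, 1 without null 1, 1 without null 2, 6 without null 3 and 17 without null 4. Over all probe sets the higher ones went from 840 to 1733, 276, 210, 324, 282, 516 and 1713 in the same order. It was 2 with the SD covariate and 0 with the heterozygote among the controls, where the stronger Map1b probe set had a limma adjusted p of 0.0669. Enzymes and chaperones that fold and modify tubulin gave 46 probe sets, of which 0 passed limma, 6 had an unadjusted p under 0.05 and SAM counted 5 higher and 6 lower.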

How the data were processed

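RNA of 8 striatal punches, 1 animal each, was measured on Affymetrix arrays. The authors deposited log2 expression values per probe set, obtained by RMA (Bioconductor) according to the series' design text, with no version or set of co-normalized arrays stated in the labels. No further scaling was done, and control probe sets were dropped. Groups are the labelled genotypes. Precision is limited by how few arrays there are.

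Null (4) and wild type (3) arrays were tested with limma 3.58.1 in R 4.3.3 (lmFit and eBayes, two-sided, no covariate, Benjamini-Hochberg over 45037 probe sets, threshold 0.05); the heterozygote entered only where stated. A member gene with several probe sets is given by its brightest, by mean over the 7 arrays, and the others are accounted for; genes of the pathway lists are given by their called probe sets. On simulated data for 45037 probe sets with the residual SDs of these arrays, limma called 60 of 100 true differences of size 1 (log2) and 87 of 100 of size 1.5, and made 15 false calls. The simulated noise was independent, with the SDs shuffled over probe sets and no differences in spread between arrays. These rates therefore need not hold for the real arrays. Named were all members past the threshold, well-known members of each role whatever their values, and of each pathway list up to 6 called probe sets or genes by absolute difference; Kif1c, Kif7, Kif13b, Kif16b, Kif17, Kif26a, Tuba3b, Tubb1 and Tubgcp5 were named after their values were seen. Members, lists and markers were chosen with earlier results of these data known.

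Alternatives were 1 probe set per gene, no dim probe sets, median centring, quantile normalization, a trend with a robust prior, array weights, each array's SD as a covariate, the heterozygote as a control, arrays left out, replicate numbers as a block, the authors' SAM score beyond 2, and thresholds of 0.01 and 0.10. All 64 member gene IDs were found in the RefSeq table of GRCm38.p6, with the same symbols. Figures used matplotlib 3.10.9 in Python 3.11.15.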

Additional observations from a re-analysis of the deposited data

Results flagged for a closer look

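Dixon's test, at its 95% critical value, was run on 42 null groups of 4 arrays. These were the called member probe sets and the brightest probe set of each member gene named whatever its values. The test marked 3, where chance marks about 1 in 20. Other probe sets were not screened. On Tubb4a (1423221_at) null 2 was the highest at 10.77, with the other null arrays from 10.57 to 10.61 and all of them above wild type. On Tubb6 (1446353_at), a beta tubulin found in many tissues, null 3 was the lowest at 6.86, with the others from 7.08 to 7.11. On Dync1li2 (1433925_at) null 3 was the highest at 9.97, with the others at 9.09, and on its other probe set (1433926_at) null 3 was again the highest, at 9.95. Null 3 was also the highest array on the brightest Kif21b probe set and on the Dync1h1 probe set 1439950_at, at 11.12 and 6.03, but on the other Kif21b probe set (1421119_at) it was the lowest null array, at 7.83.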

How the results depend on the processing

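The alternatives were followed for the called probe sets and the brightest ones of genes named whatever their values. There, 765 values stayed on their side of the threshold, 37 lost a call and 31 gained one. Of values called in either fit, 0 changed direction. Changes of sign in values called in neither fit were not counted apart. Of the counts, 200 were unchanged or within 1.5 times, many of them counts of 0 that stayed 0, and 80 moved. Against 4 members higher and 2 lower, SAM scores beyond 2, the authors' measure, gave 28 higher (18 transport kinesins, 3 dyneins, 2 other kinesins, 2 alpha and beta tubulins, 2 gamma tubulins and complex proteins, 1 mitotic kinesin) and 19 lower (6 alpha and beta tubulins, 5 mitotic, 5 transport and 3 other kinesins); over all probe sets it gave 4630 higher and 5717 lower, or 10.3% and 12.7%. Array weights gave 22 higher (16 transport, 3 other kinesins, 1 of the gamma tubulin group). A threshold of 0.10 gave 10 higher (7 transport kinesins), and one of 0.01 gave 2 higher and 0 lower, with 0 transport kinesins and 0 alpha and beta tubulins in either direction. The SD covariate gave 2 higher and 0 lower, with 0 transport kinesins and 0 alpha and beta tubulins. With the heterozygote among the controls 0 were higher (0 transport and 0 other kinesins, 0 dyneins, 0 tubulins) and 1 tubulin was lower. With wild type 1 and null 2 both left out, 2 were higher and 0 lower, with 0 other kinesins and 0 tubulins. With 1 probe set per gene 0 transport kinesins were higher and 1 tubulin lower. Median centring, and the trend with a robust prior, each left 1 lower member, a tubulin, and quantile normalization 0 higher tubulins. Leaving out each array in turn gave 1 to 13 higher and 0 to 2 lower members: transport kinesins 0 to 7 higher, other kinesins 0 to 3, dyneins 1, the gamma tubulin group 0 to 1, alpha and beta tubulins 0 to 1 higher and 0 to 2 lower, mitotic kinesins 0. Over all probe sets the same gave 210 to 1733 higher and 76 to 443 lower, against 840 and 204. Array weights gave 2686 higher and 965 lower over all probe sets. A threshold of 0.10 gave 1690 and 449, and one of 0.01 gave 190 and 52. With the SD covariate there were 189 and 93, and with the heterozygote among the controls 110 and 96. Without wild type 1 and null 2 together there were 412 and 62. Median centring gave 548 and 124, the trend with a robust prior 882 and 206, and quantile normalization 839 and 328. The cause of these shifts was not tested.

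No pairing by the replicate numbers 1 to 3 was seen. Deviations of same-numbered wild type and null arrays correlated at -0.25, -0.31 and -0.17, and 0 of 6 arrays correlated best with their own number. With so few arrays, which also differ in SD, this cannot exclude a pairing. With the replicate block, on 6 arrays without null 4, 9 members were higher (6 transport kinesins, 2 other kinesins, 0 alpha and beta tubulins) and 2 lower. Over all probe sets that fit gave 1696 higher and 212 lower. No setting was run on probe-level signals, so what background and dim signal limit cannot be given here.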
